A study of Mus musculus with 2 samples.

Results

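The genes of the proteasome family numbered 50 of the 43346 genes in the tables, of which 21474 were protein-coding. A gene belonged to the family where its identifier, without the version number, matched a protein-coding mouse gene whose symbol starts with Psm, then a letter from a to g, then a digit. No measured value entered this choice. By role the family held 14 constitutive 20S genes (7 alpha and 7 beta), 3 inducible and 2 tissue-restricted 20S genes, 17 genes of the 19S particle (6 ATPases and 11 other subunits), 4 activators, 1 inhibitor and 7 assembly factors. A further 2 genes, Psmc3ip and Psme2b, matched the naming rule and were placed in none of these roles. The 50 genes lie on 16 chromosomes.

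The proteasome is the main protease of the cytosol and nucleus, and it degrades proteins that carry a chain of ubiquitin. Its 20S barrel is built from stacked rings: outer rings of alpha subunits, which form the gate, and inner rings of beta subunits, some of which carry the proteolytic sites. The 19S particle caps the barrel, recognises ubiquitin, removes it, and unfolds the substrate with a ring of ATPases. In the nervous system the proteasome is known for clearing damaged proteins and for the timed removal of cell cycle and neurogenic regulators.

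The libraries came from midbrains of untreated, healthy B6NCrl mouse embryos at embryonic day 11.5. They form 1 group of 2 biological replicates, a pool of 109 embryos (replicate 1) and a pool of 88 embryos (replicate 2), each with both sexes. Input was 10 ng of total RNA above 200 nt, to which ERCC spike-ins, synthetic RNAs of known amount, had been added. With 1 group there is no contrast of conditions, so the levels of different genes were set against each other inside a library, and the pools were compared as libraries.

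Depth was 41760197 expected counts in replicate 1 and 49256468 in replicate 2. Levels are given in TPM, a relative transcript abundance that is corrected for length and so allows levels of different genes to be set side by side. Spike-ins took 15.2% of TPM in replicate 1 and 14.8% in replicate 2. The midbrain label was checked on marker genes: 7 of 7 midbrain markers reached 1 TPM in both libraries, and 0 of 4 Hox genes of the hindbrain and spinal cord did. Otx2 was the highest midbrain marker, at 169 TPM in replicate 1 and 171 TPM in replicate 2. En2 was the lowest, at 1.80 and 2.21 TPM, and En1 had 4.94 and 6.29 TPM in the same order. No forebrain markers were listed, so the presence of forebrain tissue was not checked. Markers of red blood cells (7 of 7), endothelium (7 of 7), mesenchyme (4 of 4) and microglia or macrophages (9 of 10) also reached 1 TPM, so the pools hold other cells as well. The red blood cell markers summed to 19590 TPM in replicate 1 and 19634 TPM in replicate 2. Those of mesenchyme summed to 678 and 649 TPM, and those of endothelium to 110 TPM in both libraries. In such bulk samples, fewer cells of a type and less RNA per cell cannot be told apart.

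Nearly the whole family was detected, and most of it at a high level. Of the 50 genes, 47 (94%) reached 1 TPM in both libraries, compared with 32.1% of all genes in the tables and 58.2% of protein-coding genes. The 3 that did not were Psmb9, Psmb11 and Psma8, all of them inducible or tissue-restricted 20S genes. The 31 constitutive 20S and 19S genes of the family are called core genes here. Subunits with other symbols, such as Sem1, fall outside the naming rule and are given with the partners. By gene level all 31 core genes lay above 100 TPM in both libraries, a level that 6.77% of protein-coding genes reached. Their lowest value in either library was 109 TPM and their highest 699.6 TPM. Among the 12496 protein-coding genes at 1 TPM in both libraries, whose median was 18.5 TPM, the core genes stood between the 89.6th and the 98.9th percentile, with a median at the 96.4th. The family as a whole took 1.22% of the TPM on genes in replicate 1 and 1.235% in replicate 2.

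**Figure D1:**
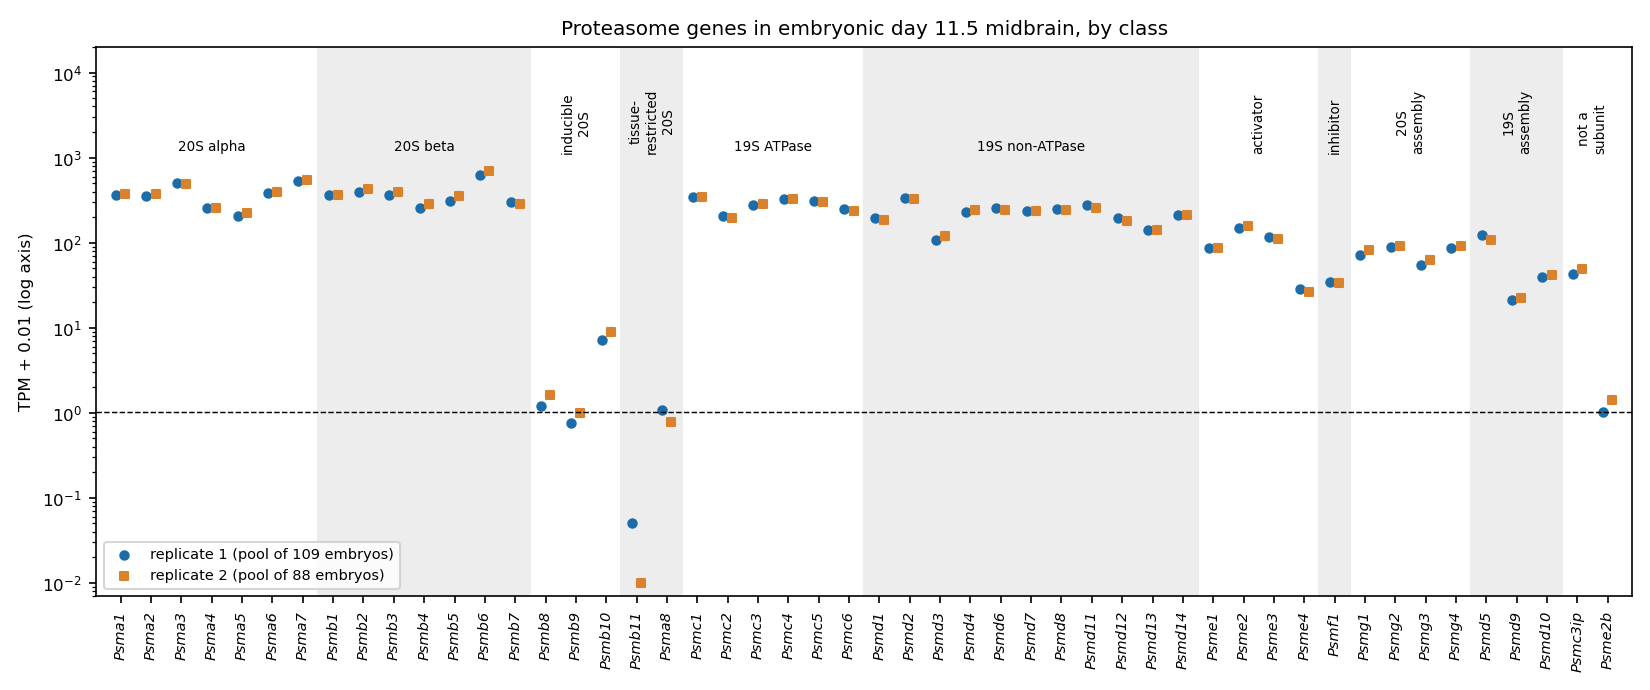
Level of each of the 50 genes in TPM + 0.01 (log axis) in replicate 1 (circles) and replicate 2 (squares), ordered by class, with a dashed line at 1 TPM. All 31 core genes lie above 100 TPM in both libraries, and the inducible and tissue-restricted 20S genes lie below 10 TPM.

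The 7 alpha genes encode the outer rings of the barrel, in which each alpha protein takes its own place. Their median level was 367 TPM in replicate 1 and 377 TPM in replicate 2 (372 ± 7.46, mean ± SD, n = 2). Psma7 was the highest of them, at 533 TPM in replicate 1 and 542 TPM in replicate 2. Psma5 was the lowest, at 209 TPM in replicate 1 and 227 TPM in replicate 2. The ends of this class were therefore the same genes in both libraries, and they stood 2.55-fold apart in replicate 1 and 2.39-fold apart in replicate 2. Psma3, the second highest by gene level, had 505 TPM in replicate 1 and 492 TPM in replicate 2. Transcripts not annotated as protein-coding took 59.8% of Psma3 in replicate 1 and 58.9% in replicate 2. Psma6 had 386 and 394 TPM, Psma1 had 367 and 371 TPM, Psma2 had 355 and 377 TPM, and Psma4 had 259 and 255 TPM, with replicate 1 given first in each case. These 4 genes lay between Psma5 and Psma3 in both libraries.

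The 7 beta genes of the inner rings had a median of 364 TPM in replicate 1 and 365 TPM in replicate 2 (364 ± 0.834, SD, n = 2), close to that of the alpha genes. Psmb6, which carries the caspase-like site, was the highest gene of the whole family. It had 630.5 TPM in replicate 1 and 699.6 TPM in replicate 2. Psmb5, which carries the chymotrypsin-like site, had 308 TPM in replicate 1 and 355 TPM in replicate 2, and Psmb7, which carries the trypsin-like site, had 298 TPM in replicate 1 and 287 TPM in replicate 2. The 3 catalytic genes were thus not at equal levels. Psmb6 lay 2.01-fold above Psmb5 (2.05-fold in replicate 1 and 1.97-fold in replicate 2), and their deposited TPM intervals, which give the estimation range within a library at a level not stated, did not overlap in either library. A difference between genes is called below where this held in both libraries in the same direction. Between Psmb7 and Psmb5 the interval test gave no call, with a mean log2 ratio of −0.18 ± 0.19 (SD, n = 2), because the intervals overlapped in replicate 1, although in replicate 2 alone, at −0.31, they were apart. That comparison is of gene levels, and the level of Psmb7 includes a retained-intron transcript, Psmb7-202, at 67.2 and 33.9 TPM. The coding Psmb7-201 alone, at 231 TPM in replicate 1 and 253 TPM in replicate 2, lay below Psmb5 in both libraries. By gene level the other beta genes, which have no proteolytic site of their own in the assembled particle, spanned a narrower range than the catalytic ones. Psmb2 had 399 and 424 TPM, Psmb3 had 364 and 398 TPM, Psmb1 had 365.0 and 365.0 TPM, and Psmb4 had 256 and 282 TPM, in replicates 1 and 2 in that order.

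Each of the 14 constitutive 20S proteins is present in equal number in the barrel, whereas their RNA levels were spread. The highest over the lowest level was 3.02 in replicate 1 and 3.09 in replicate 2. The coefficient of variation across the 14 genes was 30.96% in replicate 1 and 31.8% in replicate 2. By gene level Psma5 was the lowest and Psmb6 the highest in both libraries, whereas genes close in level changed places. Psmb3 was below Psma6, Psma1 and Psmb1 in replicate 1 and above all of them in replicate 2. Gene levels include transcripts not annotated as protein-coding, which took 59.8% and 58.9% of Psma3 and 53.4% and 52.4% of Psmb4 in replicates 1 and 2. The coding Psmb4-201 alone, at 119 and 135 TPM, lay below Psma5. The spread of coding RNA alone was not computed. Over all 31 core genes, 29 fell on the same side of the core median in both libraries.

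Promoters of Psmb5 and Psmb6 are shown because both hold the letters TGACNNNGC, the core of the antioxidant response element, to which Nfe2l1 and Nfe2l2 bind. Nfe2l1 is the known activator of proteasome genes when proteasome activity falls. The promoter of Psmb10, an inducible gene, is shown as an example that holds none of the 5 motifs searched. Within the family TGACNNNGC was in 0 of the 7 alpha genes. Besides Psmb5 and Psmb6 it was in the core genes Psmc6 and Psmd12, and in Psmd9 and Psme4, which lie below the core genes in level. A promoter was at hand for only 4 of the 7 beta genes and 25 of the 31 core genes. Psmb7, the third catalytic gene, was among those not searched. Its share in the family is near that of all genes, as given with the other motifs. Sequences are from RefSeq on GRCm38 (mm10), 150 bases each, 5′ to 3′ on the strand of the gene, and capitals mark the match. The Psmb5 stretch is chr14:54618023-54618172 on the minus strand and ends 27 bases before the RefSeq start. The Psmb6 stretch is chr11:70525207-70525356 on the plus strand and ends at the start, and the Psmb10 stretch is chr8:105938445-105938594 on the minus strand and ends 52 bases before it.
Psmb5: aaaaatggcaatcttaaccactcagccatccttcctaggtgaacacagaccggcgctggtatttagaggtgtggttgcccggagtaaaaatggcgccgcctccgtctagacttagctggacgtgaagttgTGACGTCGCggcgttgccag
Psmb6: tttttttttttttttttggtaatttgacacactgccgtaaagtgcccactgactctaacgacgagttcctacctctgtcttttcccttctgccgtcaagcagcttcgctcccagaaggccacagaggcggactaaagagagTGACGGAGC
Psmb10: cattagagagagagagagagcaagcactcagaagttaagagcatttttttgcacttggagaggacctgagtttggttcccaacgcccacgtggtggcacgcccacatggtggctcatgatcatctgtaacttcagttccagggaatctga

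The 3 inducible genes encode the catalytic subunits of the immunoproteasome, in which Psmb8 takes the place of Psmb5, Psmb9 that of Psmb6, and Psmb10 that of Psmb7. Interferon gamma induces them, and blood cells of the immune system use them without it. In the embryonic midbrain they were near the detection limit or low. Psmb8 (chr17:34197721-34201454) had 1.18 TPM in replicate 1 and 1.60 TPM in replicate 2, from 35 and 47 expected counts. Psmb9 (chr17:34181987-34187764) had 0.75 TPM in replicate 1 and 0.99 TPM in replicate 2. Psmb10 (chr8:105935735-105938444) had 7.11 TPM in replicate 1 and 8.80 TPM in replicate 2. Psmb10 was thus the highest of the 3 and its deposited intervals, 6.07 to 7.91 TPM in replicate 1 and 7.72 to 9.58 TPM in replicate 2, overlapped between the libraries.

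Every constitutive catalytic gene lay far above its inducible counterpart in both libraries, with intervals apart. Psmb5 exceeded Psmb8 by 240.4-fold in replicate 1 and 209-fold in replicate 2. Psmb6 exceeded Psmb9 by 742-fold in replicate 1 and 642-fold in replicate 2. The smallest of these folds was that of Psmb7 over Psmb10, 41.4 in replicate 1 and 32.3 in replicate 2. The folds are of TPM + 0.1 and depend on that pseudocount where the lower gene is near 1 TPM. With TPM + 1 the mean log2 ratio was 8.48 in place of 9.43 for Psmb6 over Psmb9, 7.12 in place of 7.81 for Psmb5 over Psmb8, and 5.04 in place of 5.19 for Psmb7 over Psmb10. The log2 ratio of the median inducible gene, Psmb8, to the median constitutive catalytic gene, Psmb5, is that of the pair itself, −7.81 ± 0.14 (SD, n = 2). With means in place of medians it was −6.95, and with only members at 1 TPM −6.12.

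**Figure D2:**
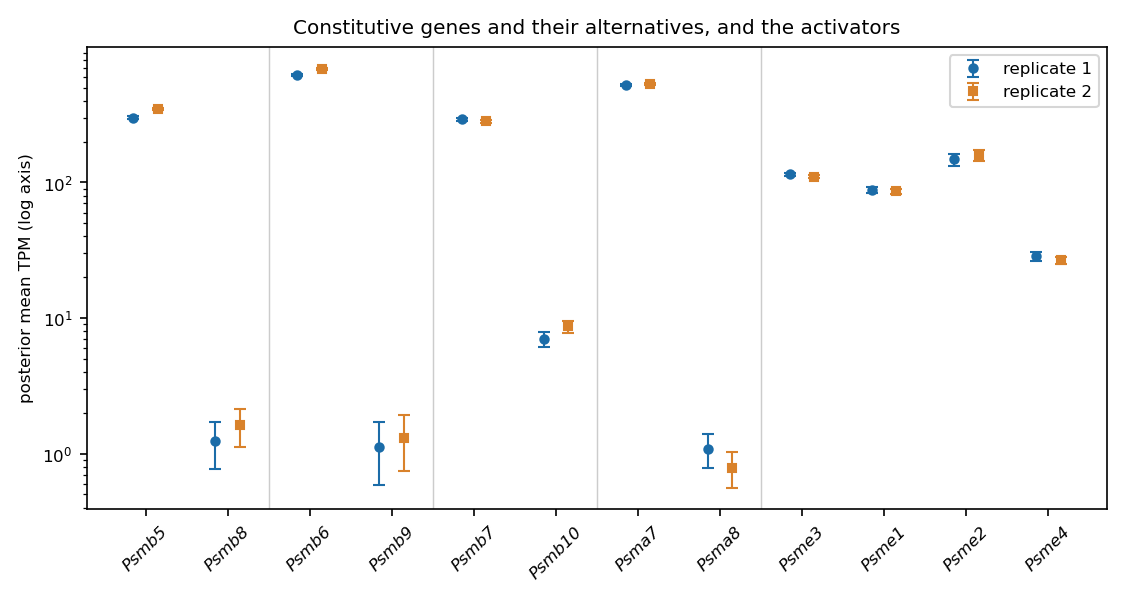
Posterior mean TPM (log axis) of constitutive genes beside their alternatives, and of the 4 activators, in replicate 1 (circles) and replicate 2 (squares), with bars for the deposited interval of each library. The bars of Psmb5, Psmb6, Psmb7 and Psma7 lie far above those of Psmb8, Psmb9, Psmb10 and Psma8 in both libraries, and Psme4 is the lowest activator.

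Genes that act with the immunoproteasome were measured beside it. Of 13 listed genes of the interferon pathway that induces it, 11 reached 1 TPM in both libraries, with a list median of 10.2 TPM in replicate 1 and 10.4 TPM in replicate 2. The receptor gene Ifngr1 had 26.5 TPM in both libraries. The interferon gamma gene itself, Ifng, had 0 counts in both libraries, which allows up to 0.0772 CPM in replicate 1 and 0.0653 CPM in replicate 2 (the level that 3 counts would give). The RNA of the receptor was thus detected and that of the cytokine was not. Of 11 antigen presentation genes, 8 reached 1 TPM in both libraries, with a list median of 19.7 TPM in replicate 1 and 23.3 TPM in replicate 2. B2m, the light chain of class I molecules, had 99.7 TPM in replicate 1 and 95.7 TPM in replicate 2. The peptide transporter genes were much lower: Tap1 had 0.59 TPM in replicate 1 and 1.29 TPM in replicate 2, and Tap2 had 0.49 TPM in replicate 1 and 0.20 TPM in replicate 2.

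Tap1 and Psmb9 start on opposite strands 211 bases from each other, and the genes overlap at their starts. The sources used here do not say whether counting used strand, so reads in the overlap cannot be assigned with certainty. Psmb9 over Tap1 gave a log2 ratio of 0.30 in replicate 1 and −0.35 in replicate 2, so the sign differed between the libraries and no call was made. Markers of microglia and macrophages, which are known to hold immunoproteasome subunits, summed to 102 TPM in replicate 1 and 108 TPM in replicate 2 over 10 genes, with C1qb the highest at 24.0 and 26.7 TPM and Ptprc the lowest at 1.51 and 0.75 TPM. The 6 T and B cell markers summed to 0.17 TPM in replicate 1 and 0.12 TPM in replicate 2, and Cd3e and Cd8a were at 0 in both. What part these cells have in the levels of the inducible genes was not tested.

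The tissue-restricted genes were at the edge of detection. Psma8, the alpha subunit that replaces Psma7 in male germ cells, had 1.08 TPM in replicate 1 and 0.78 TPM in replicate 2, from 46 and 40 expected counts. Psma7 lay 452-fold above it in replicate 1 and 616-fold in replicate 2, a mean log2 ratio of 9.04, which was 8.13 with TPM + 1. Germ cell markers were also low, with 0 of 4 at 1 TPM in both libraries and a sum of 1.78 TPM in replicate 1 and 1.20 TPM in replicate 2. Psmb11 (chr14:54621433-54629556), the catalytic subunit of the thymoproteasome of thymic cortex, lies beside Psmb5 (chr14:54614119-54618022). It had 4 counts in replicate 1 and 0 in replicate 2, and no fold is given for it. Foxn1, the defining regulator of thymic epithelium, was at 0 in both libraries. Of the other listed thymic markers, Prss16 had 0.30 TPM in replicate 1 and 0.08 TPM in replicate 2, whereas Ccl25 had 9.00 TPM in replicate 1 and 10.4 TPM in replicate 2.

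The 19S genes were somewhat lower than the 20S genes. The median of the 17 constitutive 19S genes of the family was 248 TPM in replicate 1 and 242 TPM in replicate 2 (245 ± 4.65, SD, n = 2). That of the 14 constitutive 20S genes was 364 TPM in replicate 1 and 374 TPM in replicate 2 (369 ± 6.82). The log2 ratio of the medians, 19S over 20S, was −0.55 in replicate 1 and −0.63 in replicate 2 (−0.59 ± 0.05), which places the 19S median 1.51-fold below. With 2 libraries, sign flips cannot give an exact p below 0.5, so none is given.

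The 6 ATPases form the ring that pulls the substrate into the barrel, and their RNAs lay close together. Their median was 294 TPM in replicate 1 and 295 TPM in replicate 2. Psmc1 was the highest at 342 TPM in replicate 1 and 348 TPM in replicate 2, and Psmc2 the lowest at 208 TPM in replicate 1 and 195 TPM in replicate 2. The coefficient of variation across the 6 genes was 17.6% in replicate 1 and 20.6% in replicate 2, lower than the values for the alpha genes (31.6% and 30.1%) and the beta genes (32.8% and 35.2%) in the same libraries. In replicate 1 the others had 323 TPM (Psmc4), 308 TPM (Psmc5), 279 TPM (Psmc3) and 248 TPM (Psmc6). In replicate 2 they had 327 TPM (Psmc4), 304 TPM (Psmc5), 286 TPM (Psmc3) and 233 TPM (Psmc6), and the order of the 6 genes was therefore the same.

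The 11 other 19S genes encode scaffolds, ubiquitin receptors and the deubiquitinase. Their median was 229 TPM in replicate 1 and 237 TPM in replicate 2 (233 ± 5.83, SD, n = 2). Psmd2, a large scaffold at the base of the particle, was the highest at 339 TPM in replicate 1 and 323 TPM in replicate 2. Its fellow scaffold Psmd1 had 197 TPM in replicate 1 and 183 TPM in replicate 2, and Psmd2 lay 1.72-fold above it in replicate 1 and 1.76-fold in replicate 2, with intervals apart. Psmd3, a lid subunit, was by gene level the lowest core gene at 109 TPM in replicate 1 and 119 TPM in replicate 2. Psmd14, the deubiquitinase that cuts the ubiquitin chain off the substrate, had 211 TPM in replicate 1 and 212 TPM in replicate 2. It was slightly below Psmd4, a ubiquitin receptor, which had 229 TPM in replicate 1 and 243 TPM in replicate 2. That difference was small but the intervals were apart in both libraries (log2 ratio of Psmd14 over Psmd4 −0.16 ± 0.06, SD, n = 2). The lid subunits Psmd6, Psmd7, Psmd8, Psmd11, Psmd12 and Psmd13 ranged between 143 and 280.2 TPM in replicate 1 and between 142 and 259 TPM in replicate 2. By gene level Psmd13 was the lowest of these 6 and Psmd11 the highest in both libraries. The leading coding transcript Psmd13-201 alone had 49.6 TPM in replicate 1 and 44.6 TPM in replicate 2. Transcripts annotated as other than protein-coding took 32.2% of Psmd13 in replicate 1 and 35.2% in replicate 2. A 361-base transcript without a matched annotation took 18.8% and 24.3% in the same order. The order of the 19S genes in coding RNA alone was not computed.

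Psmd4 was the only detected gene of the family with several transcripts whose leading transcript differed between the libraries. Its gene (chr3:95032694-95042614, minus strand) gave near-equal shares to a pair of coding transcripts. Psmd4-202 took 47.1% of the gene in replicate 1 and 49.7% in replicate 2, and Psmd4-201 took 47.3% in replicate 1 and 43.9% in replicate 2. Psmd4-201 thus led in replicate 1 and Psmd4-202 in replicate 2. Both transcripts have 10 exons, and their coding sequences, of 1137 bases in Psmd4-201 and 1128 bases in Psmd4-202, differ by 9 bases at chr3:95033909-95033917. The transcripts also differ outside the coding sequence, with full lengths of 1276 bases for Psmd4-201 and 1332 bases for Psmd4-202. The stretch around the 9 bases is shown because it is where the coding sequences differ, with 27 bases on either side, 5′ to 3′ on the strand of the gene, from the GENCODE M21 transcripts on GRCm38. Capitals mark the 9 bases that only Psmd4-201 holds.
Psmd4-201: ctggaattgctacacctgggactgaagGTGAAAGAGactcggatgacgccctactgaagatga
Psmd4-202: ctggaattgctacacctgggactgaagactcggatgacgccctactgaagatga

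Most of the family kept its leading transcript between the libraries. Of the detected genes, 38 had at least 2 transcripts in the tables, and 37 of them had the same leading transcript in both libraries, compared with 91.4% of all 9585 such genes at 1 TPM. The median share of the leading transcript was 90.6% over these 38 genes and 71.7% over all such genes. The leading transcript held at least 80% of the gene in both libraries in 22 of the 38. In some of the others both leading transcripts were protein-coding. Psmg3-201 took 55.95% of Psmg3 in replicate 1 and 56.5% in replicate 2, and Psmg3-202 took 39.3% in replicate 1 and 39.6% in replicate 2. Psmd11-214 took 58.5% of Psmd11 in replicate 1 and 58.7% in replicate 2, and Psmd11-205 took 29.5% in replicate 1 and 28.9% in replicate 2. In Psma3 and Psmb4 the leading transcript was annotated as a retained intron. In Psma3, transcripts not annotated as protein-coding took 59.8% in replicate 1 and 58.9% in replicate 2, led by the retained-intron transcript Psma3-203 with 28.84% in replicate 1 and 31.04% in replicate 2. In Psmb4 the retained-intron transcript Psmb4-202 took 51.9% in replicate 1 and 50.2% in replicate 2, and the coding Psmb4-201 took 46.6% in replicate 1 and 47.7% in replicate 2. The gene level of Psmb4, 256 TPM in replicate 1 and 282 TPM in replicate 2, therefore includes 119 TPM and 135 TPM of coding transcript.

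**Figure D3:**
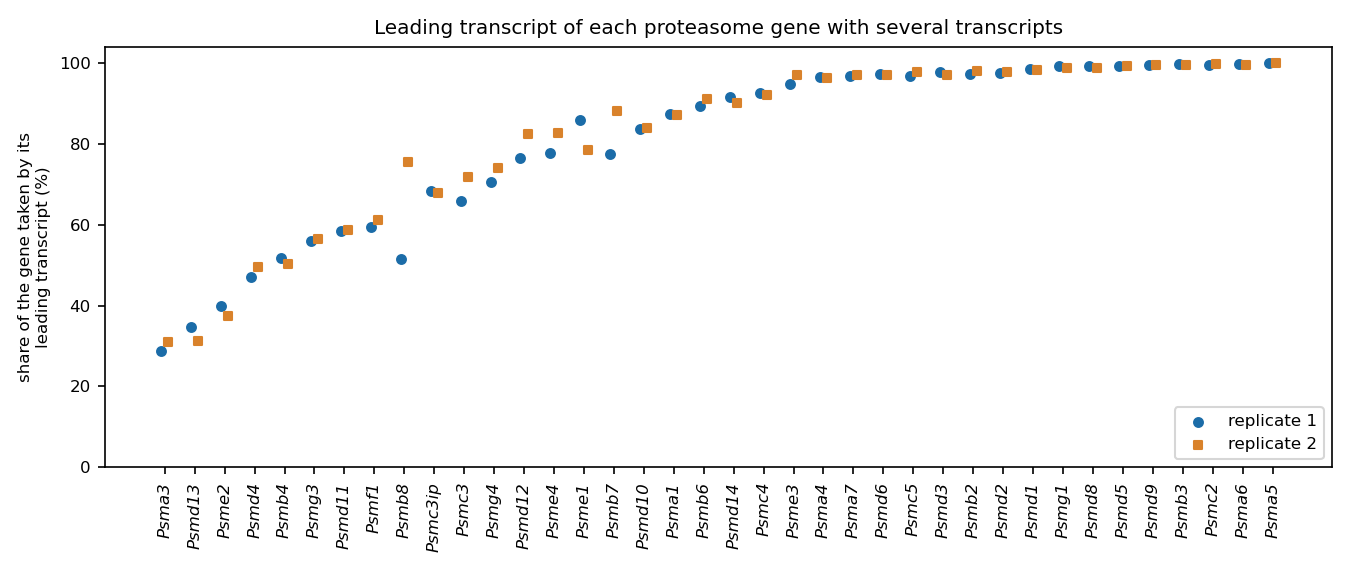
Share of each gene, in percent, taken by its leading transcript in replicate 1 (circles) and replicate 2 (squares), for the 38 detected genes with at least 2 transcripts. Psma3 has the lowest share, at 28.84% in replicate 1 and 31.04% in replicate 2, and 19 genes lie at 90% or more.

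Not all transcript shares agreed between the pools. The retained-intron transcript Psmb7-202 took 22.5% of Psmb7 in replicate 1 and 11.8% in replicate 2. In Psmb8, with 35 and 47 counts, the leading Psmb8-203 took 51.6% in replicate 1 and 75.5% in replicate 2, a difference that rests on few reads. In Psme2 the 185-base retained-intron transcript Psme2-203 took 15.7% in replicate 1 and 27.9% in replicate 2.

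The activators open the barrel without ATP. Psme1 and Psme2 together form a ring that interferon also induces, Psme3 forms a ring of its own in the nucleus, and Psme4 is a large single-chain activator. Psme2 (chr14:55587441-55591113) was the highest, at 148 TPM in replicate 1 and 159 TPM in replicate 2. Psme3 had 117 TPM in replicate 1 and 112 TPM in replicate 2, and Psme1 (chr14:55578123-55581529) had 86.8 TPM in replicate 1 and 85.5 TPM in replicate 2. Psme4 was the lowest, at 28.5 TPM in replicate 1 and 26.6 TPM in replicate 2. Each pair tested had intervals apart in both libraries. Psme1 lay 1.78-fold below its partner Psme2 (log2 ratio −0.83 ± 0.09, SD, n = 2), Psme3 lay 1.33-fold above Psme1, and Psme3 lay 4.14-fold above Psme4. Both interferon-responsive activators were thus at higher TPM than the 3 inducible catalytic genes in the same libraries. The order and folds of the activators are those of gene levels, not of coding RNA alone. Transcripts not annotated as protein-coding took 23.1% of Psme2 in replicate 1 and 34.5% in replicate 2. They took 10.5% and 16.6% of Psme1, and 4.38% and 2.21% of Psme3, in the same order. Psmf1, named as an inhibitor of the 20S particle, had 34.6 TPM in replicate 1 and 34.0 TPM in replicate 2, 2.51-fold below Psme1.

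Assembly factors do not stay in the finished particle, and the median of their RNAs was lower than that of the core subunits. The median of the 7 was 72.1 TPM in replicate 1 and 82.6 TPM in replicate 2 (77.3 ± 7.40, SD, n = 2), 4.78-fold below the 20S median (log2 ratio −2.26 ± 0.11). The 20S chaperones work in pairs, Psmg1 with Psmg2 and Psmg3 with Psmg4. Psmg1 had 72.1 TPM in replicate 1 and 82.6 TPM in replicate 2, and its partner Psmg2 had 88.5 TPM in replicate 1 and 91.5 TPM in replicate 2. Psmg3 had 55.3 TPM in replicate 1 and 62.8 TPM in replicate 2, and its partner Psmg4 had 87.5 TPM in replicate 1 and 92.3 TPM in replicate 2. Within each pair the levels were unequal with intervals apart, Psmg1 1.17-fold below Psmg2 and Psmg3 1.52-fold below Psmg4. Of the chaperones of the 19S base, Psmd5 had 124 TPM in replicate 1 and 109 TPM in replicate 2, Psmd10 had 39.7 and 41.9 TPM, and Psmd9 had 21.1 and 22.1 TPM in the same order. Psmd5 was thus the only assembly factor of the family above 100 TPM in both libraries, and in replicate 1 it was above the core subunit Psmd3.

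The 2 genes placed in none of the roles, Psmc3ip and Psme2b, were at different levels. Psmc3ip, which works in homologous recombination, had 43.3 TPM in replicate 1 and 49.7 TPM in replicate 2. Most of that was the retained-intron transcript Psmc3ip-202, at 68.5% in replicate 1 and 67.9% in replicate 2, and the coding Psmc3ip-201 took 17.2% in replicate 1 and 13.6% in replicate 2. Psme2b, whose annotated gene of 837 bases is as long as its transcript, had 1.01 TPM in replicate 1 and 1.42 TPM in replicate 2. Its expected counts, 20.01 in replicate 1 and 33.6 in replicate 2, were not whole in either library. The same held in at least 1 library for 15 of the 50 genes, and the level of Psme2b, which resembles Psme2, is uncertain.

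Partners outside the family were measured on the same scale. All 13 matched genes of the partner list reached 1 TPM in both libraries, with a median of 75.3 TPM in replicate 1 and 76.9 TPM in replicate 2. Pomp, the maturation factor of the 20S particle, was the highest and stood at the level of the subunits, with 335 TPM in replicate 1 and 349.8 TPM in replicate 2. Sem1, a small 19S subunit, had 183 TPM in replicate 1 and 192 TPM in replicate 2, and Adrm1, a ubiquitin receptor, had 130.5 TPM in replicate 1 and 130.9 TPM in replicate 2. The deubiquitinase genes Usp14 (146 and 132 TPM) and Uchl5 (67.2 and 64.8 TPM), given for replicates 1 and 2, lay below most core subunits. The 14 ubiquitin and shuttle genes all reached 1 TPM, with a median of 94.7 TPM in both libraries, and the polyubiquitin gene Ubb was the highest at 2912 TPM in replicate 1 and 2819 TPM in replicate 2.

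Regulators of proteasome genes had a lower median than the core genes. Of 10 listed, 9 reached 1 TPM in both libraries, with a median of 13.2 TPM in replicate 1 and 13.3 TPM in replicate 2. Nfe2l1 had 23.9 TPM in replicate 1 and 27.2 TPM in replicate 2, and Nfe2l2, its relative in the oxidative stress response, had 24.2 TPM in replicate 1 and 20.7 TPM in replicate 2. The order of these genes differed between the libraries and no call was made (log2 ratio −0.02 in replicate 1 and 0.39, with intervals apart, in replicate 2). Nfe2l1 exceeded Nfe2l3, the third relative, by 5.86-fold in replicate 1 and 8.11-fold in replicate 2 with intervals apart. Of the enzymes that activate the Nfe2l1 protein, the protease Ddi2 had 12.8 TPM in replicate 1 and 13.4 TPM in replicate 2, and Ngly1, which removes its sugars, had 15.9 TPM in replicate 1 and 13.2 TPM in replicate 2. Ddi1 was at 0 TPM in both libraries.

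Promoter windows, 250 bases before to 50 bases after a RefSeq start, were at hand for 42 of the 50 genes, and motifs were sought on both strands. TGACNNNGC was found in 6 of the 42 genes (14.3%), beside 3781 of the 27025 genes with a window. The 6 were Psmb5, Psmb6, Psmc6, Psmd12, Psme4 and Psmd9. CCAAT, the NF-Y box, was found in 35.7% of the 42 genes and in 41.1% of all genes, and it was held by 5 of the 7 alpha genes (Psma1, Psma2, Psma3, Psma6 and Psma7). GGGCGG, the GC box, was found in 54.8% of the 42 genes and in 38.2% of all genes, and TATAAA in 9.52% and 15.7%. The GC box was thus the commonest of these motifs in the family, present in 23 genes. The core of the interferon-stimulated response element, which is TTTC, any 2 bases and TTTC again, was found in 5 genes (11.9%, beside 3.99% of all genes): Psmb3, Psmd4, Psme1, Psmg4 and Psmd9. It was not in the windows of Psmb8, Psmb9 or Psmb10. Matches were counted once per gene, and matches of different motifs may overlap. A match is a description of letters, not a bound site.

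Shared start regions were common in the family. A protein-coding neighbour started on the opposite strand within 1000 bases of 12 of the 50 genes (24.0%), beside 10.9% of the 21474 protein-coding genes. The closest was Psmc2 with Dnajc2, a ribosome-associated chaperone, 32 bases apart. Psmc2 had 208 TPM in replicate 1 and 195 TPM in replicate 2, and Dnajc2 had 82.1 TPM in replicate 1 and 78.7 TPM in replicate 2. Psma2 starts 75 bases from Mrpl32, a mitochondrial ribosomal protein gene with 105 TPM in both libraries, and Psmb1 starts 137 bases from Tbp, the TATA-binding protein gene, with 58.4 TPM in replicate 1 and 65.0 TPM in replicate 2. Of the 12 neighbours, all had a lower TPM than the Psm gene they face in both libraries, except Tap1 in replicate 2. Psma4, Psmb9, Psmd5 and Psmd13 overlap their neighbours at the start, so their counts carry the same doubt about strand.

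The libraries were then compared gene by gene with a two-sided exact binomial test of the rounded counts, with sizes scaled by TMM and Benjamini-Hochberg adjustment over the 17148 genes with at least 20 counts in sum. With 1 library on each side the test compares these pools and not conditions, and it covers counting error only, as do the limits for 0 counts. The deposited intervals cover the estimation error within a library and not the spread between pools. Of the 49 genes of the family that were tested, 0 passed an adjusted p of 0.05 with a difference of at least 2-fold, beside 2.8% of all genes tested. Without the 2-fold minimum, 23 of the 49 passed, 9 higher and 14 lower in replicate 1, beside 34.9% of all genes (17% higher and 18% lower). At an unadjusted p under 0.05 there were 26, beside 43.4% of all genes. With a coefficient of variation of 0.1 assumed for each gene, edgeR's exact test called 0 of them at any size, beside 0.962% of all genes. The deposited intervals were apart in 19 of the 47 detected genes, 7 higher and 12 lower in replicate 1, beside 22.4% of all detected genes (11.4% higher and 11.1% lower).

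Abundant genes are counted with little error, so the calls were set beside those of genes at the same level. Among the 1161 protein-coding genes within the TPM range of the core genes, 60.6% passed the test without the minimum and 46.5% had intervals apart, and among the 31 core genes 58.1% and 48.4% did. The core genes thus stood near the background of their own level. The largest difference among core genes was that of Psmb5 (log2 ratio −0.22, adjusted p = 2.16e-18, exact binomial test), with 6358 counts in replicate 1 and 8786 in replicate 2. Psmb6, with 11630 counts in replicate 1 and 15470 in replicate 2, had a log2 ratio of −0.16 (adjusted p = 1.68e-18, exact binomial test). Outside the core, Psmg1 had −0.21 (adjusted p = 3.5e-05), Psmd5 had 0.18 (adjusted p = 2.17e-11) and Psmb10 had −0.32 (adjusted p = 0.037) in the same exact test.

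Signs of these small differences were counted for each particle. These ratios are of counts, and their sign can differ from that of the printed TPM. Psmb7, lower in replicate 1 by counts (log2 ratio −0.05 under TMM), had 298 TPM in replicate 1 and 287 TPM in replicate 2. Of the 14 constitutive 20S genes 12 were lower in replicate 1 under TMM, DESeq2 size factors and total counts, and 14 under spike-in scaling, with a median log2 ratio of −0.07 under TMM. Of the 17 constitutive 19S genes 10 were higher in replicate 1 under TMM (median log2 ratio 0.03), 11 under DESeq2 size factors and 10 under total counts, but 7 under spike-in scaling, where the majority flips. Among the 1161 protein-coding genes in the same TPM range, 54.3% were lower in replicate 1 under TMM and 74.5% under spike-in scaling. Transcript length moved alongside. The median length was 990 bases for the 20S genes and 1457 bases for the 19S genes, and among the protein-coding genes in the same TPM range the median log2 ratio was −0.07 for 313 genes under 1000 bases and 0.07 for 132 genes over 3000 bases. The 7 core genes under 1000 bases had a median of −0.14 and the 16 between 1000 and 1500 bases a median of −0.01. The part of length in the difference between the particles was not tested.

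**Figure D4:**
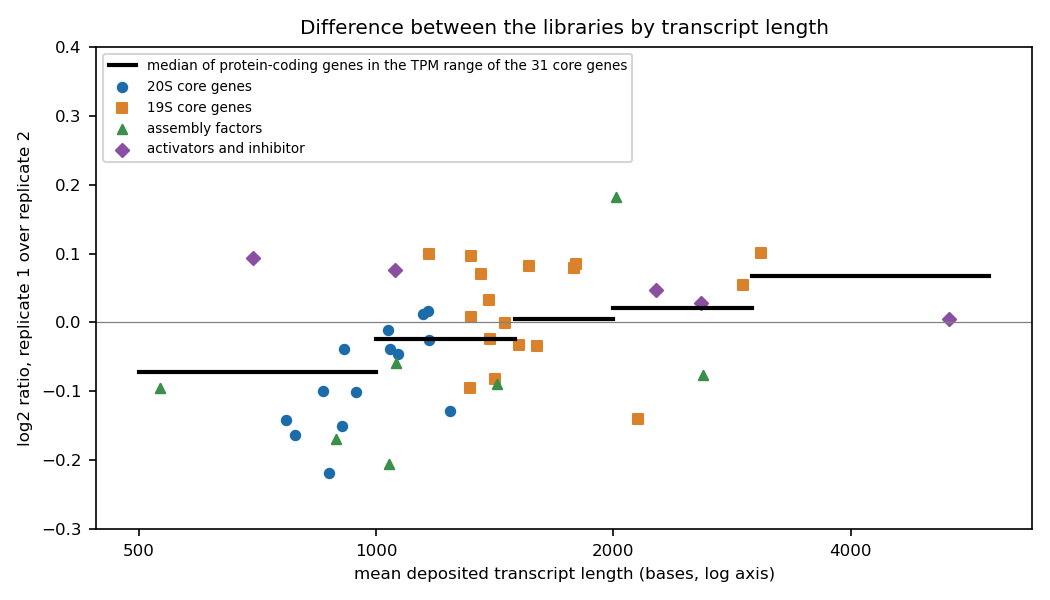
Log2 ratio of replicate 1 over replicate 2 (TMM scaling) against the mean deposited transcript length in bases (log axis) for the 20S and 19S core genes, the assembly factors, the activators and the inhibitor, with black lines for the median of protein-coding genes in the TPM range of the core genes. Of the 14 20S points 12 lie below 0 (14 under spike-in scaling) and of the 17 19S points 10 lie above it (7 under spike-in scaling), and the black lines climb from −0.07 to 0.07 with length.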

How the data were processed

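Total RNA-seq of 2 midbrain libraries was analysed from the deposited gene and transcript tables. Per the file headers, the authors deposited an expected count (an estimated number of reads, not always whole), TPM, FPKM, and posterior means for each gene. The authors also deposited lower and upper bounds of TPM, handled here as a signal without a set sum, whose level no source used here states. The transcript tables hold a percent, the deposited share of each transcript in its gene. The accompanying notes name mm10 and annotation M4, with aligner and quantifier not given in the sources used here. A Smart-seq protocol is cited in the labels, which amplifies cDNA, so several reads may stem from the same molecule.

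Symbols, coordinates (1-based) and transcript types came from GENCODE M21 on the same assembly, and 42462 genes matched. Spike-ins (96), phiX (1) and 26248 numeric rows (4.44 and 13.25 counts) were left out of tests. Of the counts, 38884247 and 45975100 fell on genes. Promoters came from RefSeq (GRCm38.p6). A gene counted as detected at 1 TPM in both libraries. Pairs were compared on TPM + 0.1 and called where their intervals were apart in the same direction in each library. The printed TPM lay outside its own interval for 9 detected family members in replicate 1 and 5 in replicate 2, and the posterior mean for 0. Expected counts were rounded for the binomial test, and log2 ratios used a prior count of 1. Across 14052 genes the replicates had a biological coefficient of variation of 7.82% (edgeR). The labels call the pools biological replicates, and p-values measure the difference between these pools only.

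Genes, lists, pairs and motifs were chosen with earlier results of these data known. Named genes are any family member, listed gene, marker, pair or opposite-strand neighbour, and class extremes are given in full. The scripts were tested on simulated data. R 4.3.3, edgeR 4.0.16, DESeq2 1.42.0 (size factors), matplotlib 3.10.9, pandas 2.3.3, scipy 1.17.1, numpy 2.4.6 and Python 3.11.15 were used. Alternatives covered the TPM form, FPKM, thresholds, pseudocounts, scaling, filters and leaving out each replicate.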

Additional observations from a re-analysis of the deposited data

How the results depend on the processing

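Across 164 alternatives over 37 results, 150 were counted as the same. For a pair this meant the same sign and call, and for a class ratio or the 20S spread a move within the SD between libraries. A count was allowed some change, such as 651 genes without the filter on low counts beside 481 with it. Part of the 150 was fixed in advance. Pair calls rest on the deposited intervals, so pseudocount, posterior means and FPKM could not change them. Leaving out 1 library moves a mean of 2 by less than their SD. Means in place of medians gave log2 ratios of −0.66 for 19S over 20S, −2.43 for assembly factors over 20S and −6.95 for inducible over constitutive catalytic genes. The last ratio was −6.12 with only members at 1 TPM, which leaves out Psmb9, and −7.12 with a pseudocount of 1. The log2 ratio of Nfe2l1 over Nfe2l2 ranged from −0.0185 to 0.391 when each replicate was left out. That of Psmb9 over Tap1 ranged from −0.35 to 0.30, and was 0.0879 with posterior mean TPM. Psmb7 over Psmb5 was −0.31 without replicate 1, with intervals apart. Without the 2-fold minimum, 5990 of all genes and 23 of the family passed the comparison of libraries, and 155 of all genes passed with the minimum and an assumed coefficient of variation of 0.1. The interferon-stimulated response element core was held by 3 genes before the start alone. Without a minimum, spike-in scaling gave 2 family genes higher and 29 lower in replicate 1, beside 9 and 14 under TMM, and the median log2 ratio of all detected genes was −0.07 beside −0.01. The share of all genes called in each direction under spike-in scaling was not computed. Under that scaling 74.5% of the 1161 protein-coding genes in the TPM range of the core genes were lower in replicate 1. The counts of 2 and 29 are thus not a result about the family. Added after seeing the data, the count of detected genes was 45 without Psmc3ip and Psme2b. Protein identity between pairs was not run, and leaving out a library gives no value for a comparison of both. No paired analysis was possible because there is 1 group. Depth limits Psma8, Psmb8, Psmb9 and Psmb11, each under 50 counts per library.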

Other observations

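Named processed pseudogenes of the family were near or at 0 counts. Psmb6-ps2 had 2 counts in replicate 1 and 4 in replicate 2, Psmb5-ps had 0 and 3, Psmb6-ps had 0 in both, and Psmb7-ps2 had 6.53 and 7.21 in the same order. Their parent genes had 11630 (Psmb6), 6358 (Psmb5) and 7480 (Psmb7) counts in replicate 1 and 15470 (Psmb6), 8786 (Psmb5) and 9166 (Psmb7) in replicate 2.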
